A study of Mus musculus with 8 samples.

Results

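The nuclear genes of the mitochondrial respiratory chain were followed in dendritic cells (DC) from the spleens of C57BL/6 mice that carried a leukemia, an acute myeloid leukemia per the series title. Members were the rows of the deposited count table whose gene ID maps to a protein-coding mouse gene named as a subunit of complex I (Nduf), II (Sdh), III (Uqcr), IV (Cox4 to Cox8) or V (Atp5). The rule gave 86 of 27179 gene IDs, with 39 for complex I, 4 for complex II, 8 for complex III, 18 for complex IV and 17 for complex V. The complex was assigned by the start of the symbol alone, so Ndufa4 and Ndufa4l2 are counted under complex I. The 8 tissue isoforms among them are described apart from their widely expressed partners. Bulk RNA sequencing covered 4 groups of 2 libraries, given here as replicates 1 and 2. They were plasmacytoid DC (pDC) after panobinostat, pDC after vehicle, conventional DC (cDC) after panobinostat and cDC after vehicle. All mice bore leukemia and were treated for 2 days, and each library came from a pool of 3 to 6 mice. Panobinostat inhibits histone deacetylases. Mice without leukemia were not analysed here, and neither the age of the mice nor the gates of the sort is given in the labels.

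Complexes I, III and IV pump protons across the inner mitochondrial membrane as electrons pass from NADH to oxygen, complex II feeds in electrons from succinate, and complex V, the ATP synthase, makes ATP from the proton gradient. Most subunits are nuclear genes, and a small set of core subunits is read from mitochondrial DNA. Several subunits of complex IV exist as isoforms, one found in most tissues and another in heart and skeletal muscle, testis or lung. Plasmacytoid DC are known for secreting type I interferon, and conventional DC for presenting antigen to T cells.

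Total counts ran from 13124861 to 20657429 per library, and 80 of the 86 members passed the filter on low counts and were tested among 14238 genes. Panobinostat pDC replicate 2 stood apart: it had the lowest total and 10745 genes with a count, against 14927 in panobinostat pDC replicate 1 and 16109 to 19950 in the other 6 libraries. For results that involve this library, counts of called members and median fold changes are given with and without it. The labelled cell types matched their markers in Siglech, a pDC surface lectin gene, with 70490 to 109626 counts in pDC libraries and 34 to 70 in cDC libraries, and in Zbtb46, a cDC transcription factor gene, with 47 to 211 counts in pDC libraries and 2940 to 4145 in cDC libraries. Of the 11 genes listed as cDC markers, 4 (Clec9a, Cd209a, Clec10a and Flt3) had at least 3254 counts in every pDC library. Clec10a and Cd209a ran against the list. Clec10a had 7170 to 9929 counts in pDC libraries and 73 to 360 in cDC libraries, and Cd209a 14953 to 20414 and 1496 to 3038. Clec9a and Sirpa overlapped between the cell types, and Flt3 was higher in cDC libraries. The 13 protein genes of mitochondrial DNA had 0 counts in all libraries, so only the nuclear part of each complex was measured.

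Promoter sequences are shown for 5 members. They are Ndufs7 and Ndufs8, core genes of complex I that differed between the cell types, and Cox6a1, Cox6b1 and Cox6b2 from the isoform pairs of complex IV. No promoter entry was available for 17 members, Cox6a2 among them. Each runs from 250 bases before to 50 bases after the transcript start in RefSeq GRCm38.p6, written 5′ to 3′ on the gene's strand. Capitals mark exact matches, on either strand, to GCGCATGC or GCATGCGC (NRF1), CCGGAAG or CTTCCGG (GABP), and AAGATGGC or GCCATCTT (YY1), motifs of factors known to bind many promoters of respiratory genes.
Ndufs7, chr10:80249199-80249498, plus strand: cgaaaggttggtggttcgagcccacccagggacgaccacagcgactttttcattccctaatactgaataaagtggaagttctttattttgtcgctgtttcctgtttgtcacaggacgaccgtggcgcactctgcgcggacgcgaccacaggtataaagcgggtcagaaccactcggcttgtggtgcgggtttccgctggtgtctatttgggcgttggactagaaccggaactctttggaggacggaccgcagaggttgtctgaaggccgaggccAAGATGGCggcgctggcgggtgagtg
Ndufs8, chr19:3912725-3913024, minus strand: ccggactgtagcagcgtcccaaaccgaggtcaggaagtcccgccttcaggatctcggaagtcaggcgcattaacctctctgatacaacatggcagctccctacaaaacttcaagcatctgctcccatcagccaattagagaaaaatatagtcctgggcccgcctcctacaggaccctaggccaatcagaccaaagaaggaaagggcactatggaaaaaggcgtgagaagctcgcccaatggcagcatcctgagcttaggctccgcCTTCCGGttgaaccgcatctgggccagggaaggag
Cox6a1, chr5:115348909-115349208, minus strand: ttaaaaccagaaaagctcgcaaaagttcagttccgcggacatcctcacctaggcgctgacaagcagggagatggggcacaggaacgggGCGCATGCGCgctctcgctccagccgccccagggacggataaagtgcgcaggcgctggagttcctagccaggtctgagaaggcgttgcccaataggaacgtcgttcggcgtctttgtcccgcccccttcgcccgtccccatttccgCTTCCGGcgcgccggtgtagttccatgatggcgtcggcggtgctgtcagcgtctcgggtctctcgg
Cox6b1, chr7:30626065-30626364, minus strand: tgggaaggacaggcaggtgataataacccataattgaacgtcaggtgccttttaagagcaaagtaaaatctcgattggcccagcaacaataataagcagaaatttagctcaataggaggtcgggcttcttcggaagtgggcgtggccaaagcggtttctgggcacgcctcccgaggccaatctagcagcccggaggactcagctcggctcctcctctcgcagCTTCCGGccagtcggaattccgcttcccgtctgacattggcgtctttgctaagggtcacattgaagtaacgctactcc
Cox6b2, chr7:4753045-4753344, minus strand: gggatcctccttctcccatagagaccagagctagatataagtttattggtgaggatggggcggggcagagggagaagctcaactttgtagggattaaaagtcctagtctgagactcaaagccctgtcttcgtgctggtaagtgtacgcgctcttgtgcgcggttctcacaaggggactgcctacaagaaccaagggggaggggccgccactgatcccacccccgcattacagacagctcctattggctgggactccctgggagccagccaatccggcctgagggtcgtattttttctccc
Ndufs7 holds a YY1 match, Ndufs8 and Cox6b1 a GABP match each, Cox6a1 a GABP match and overlapping NRF1 matches on both strands, and Cox6b2 no match to these letters. The promoter table held 74 promoters of 69 members. The NRF1 letters stood in 13.5% of these, in 4.98% of promoters of the genes tested and in 2.73% of all 32544 promoters. For GABP these shares were 23.0%, 16.9% and 8.91%, and for YY1 they were 13.5%, 4.24% and 2.77%. Among the 35 promoters of complex I members, 7 held the YY1 letters. Of the 3 motifs, the NRF1 forms can overlap each other, and GABP's CTTCCGG begins with the letters on which the second form of YY1 ends. A match is a stretch of letters and not a measured binding site.

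The member that set the cell types apart was Cox6a2, which codes for the form of cytochrome c oxidase subunit 6A known from heart and skeletal muscle (Entrez Gene 12862, GRCm38 chromosome 7, 128205435 to 128206366). It had 8724 and 6219 counts in panobinostat pDC and 9842 and 9430 in vehicle pDC, against 9 and 12 counts in panobinostat cDC and 9 and 4 in vehicle cDC. Every pDC library lay far above every cDC library. In CPM, read counts scaled to library size as edgeR does, it averaged 505 ± 103 in panobinostat pDC and 0.543 ± 0.154 in panobinostat cDC (SD, n = 2 each), a log2 fold change of 9.85 ± 0.44 (SE; adjusted p = 0.000548 by edgeR's quasi-likelihood test). In vehicle it averaged 503 ± 9.46 CPM in pDC and 0.302 ± 0.166 CPM in cDC (SD, n = 2 each), a log2 fold change of 10.67 ± 0.46 (adjusted p = 0.000659). By size this was the 31st largest rise among the 14238 genes tested with panobinostat and the 15th largest with vehicle. Leaving out panobinostat pDC replicate 2 gave log2 fold changes of 9.58 and 10.65, with adjusted p of 0.0002 and 0.000108. In bulk RNA, fewer cells of a type and less RNA per cell cannot be told apart.

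Cox6a1, the widely expressed partner of Cox6a2 (Entrez Gene 12861, GRCm38 chromosome 5, 115345652 to 115348958), was called in 0 of the 5 comparisons in the reported fit. In a fit with offsets for GC and length it was called for pDC over cDC with panobinostat (1.31 ± 0.34, adjusted p = 0.0464). It had 256 and 435 CPM in panobinostat pDC and 176 and 269 CPM in vehicle pDC, against 197 and 218 CPM in panobinostat cDC and 187 and 196 CPM in vehicle cDC. Cox6a2 made up 62.8% and 57.0% of the pair's counts in panobinostat pDC and 73.9% and 65.4% in vehicle pDC, against 0.219% and 0.298% in panobinostat cDC and 0.223% and 0.0941% in vehicle cDC. The exact 95% binomial intervals, which cover counting error only, lay between 56.1% and 74.6% over the pDC libraries and between 0.0256% and 0.520% over the cDC libraries. Divided by the length of merged exons, which is close for both genes, the Cox6a2 share averaged 60.7 ± 4.06% in panobinostat pDC and 70.3 ± 5.88% in vehicle pDC (SD, n = 2 each).

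On the scale of CPM per kilobase of merged exon, Cox6a2 had the highest mean level of the 84 members with an annotated length in both pDC groups. It averaged 743 in panobinostat pDC and 739.9 in vehicle pDC, and Cox4i1, a regulatory subunit of complex IV, 679 in panobinostat pDC and 434 in vehicle pDC. In panobinostat pDC replicate 2 Cox4i1 was the higher, at 908 against 850 for Cox6a2. The order also rested on the length used: per kilobase of the longest transcript, Cox4i1 averaged 1376 in panobinostat pDC and 880 in vehicle pDC and ranked ahead of Cox6a2. By CPM alone Cox6a2 ranked 5th of 86 members in panobinostat pDC and 4th in vehicle pDC. In cDC, on merged exons, it ranked 76th with panobinostat and 78th with vehicle. Genes of muscle were not high beside it: Mb, the myoglobin gene, and Myh7, a heavy chain of slow myosin, had 0 counts in every pDC library, Ckm and Tnnc1 had 0 or 1, and Acta1, the skeletal actin gene, had 130 to 397, against 891 to 1043 in cDC libraries. Within pDC, Cox6a2 had a log2 fold change of 0.01 ± 0.29 with panobinostat (adjusted p = 1), and its sign turned under several settings.

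**Figure D1:**
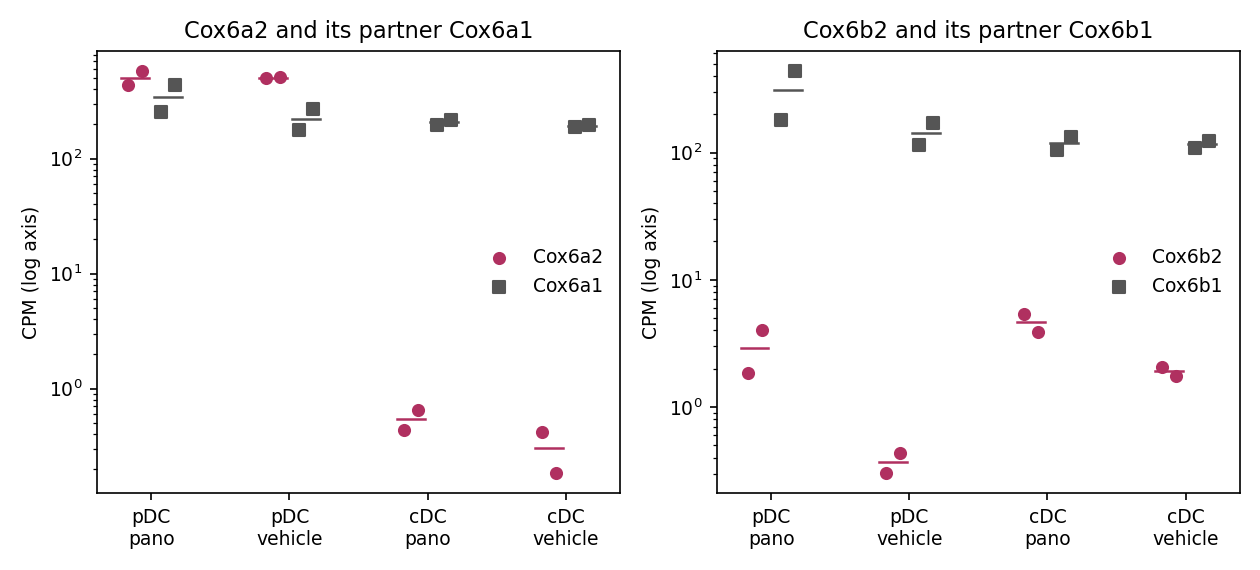
CPM on a log axis of Cox6a2 and Cox6a1 (left) and of Cox6b2 and Cox6b1 (right) in the 4 groups, with 1 point per library and a line at the group mean. Cox6a2 lies at 432 to 578 CPM in the 4 pDC libraries and at 0.185 to 0.652 CPM in the 4 cDC libraries, while Cox6b2 stays at 5.40 CPM or below throughout.

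Cox6b2, the form of subunit 6B known from testis (Entrez Gene 333182, GRCm38 chromosome 7, 4751792 to 4753094), was low everywhere and had the opposite order between cell types. It had 37 and 43 counts in panobinostat pDC and 6 and 8 in vehicle pDC, against 112 and 71 counts in panobinostat cDC and 44 and 38 in vehicle cDC. The panobinostat libraries lay above the vehicle libraries in both cell types, with log2 fold changes of 2.96 ± 0.78 in pDC (adjusted p = 0.203) and 1.28 ± 0.72 in cDC (adjusted p = 1), and neither passed the test. In vehicle the log2 fold change of pDC over cDC was -2.35 ± 0.76 (adjusted p = 0.116), and -2.38 ± 0.45 (adjusted p = 0.0094) without panobinostat pDC replicate 2. Its partner Cox6b1 had 179 and 438 CPM in panobinostat pDC and 114 and 169.6 CPM in vehicle pDC, against 104 and 132 CPM in panobinostat cDC and 109 and 124 CPM in vehicle cDC. Cox6b2 gave at most 4.94% of the pair's counts in any library.

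The remaining tissue isoforms were at or near 0. Cox7a1, the muscle form of subunit 7A, had 6 and 0 counts in panobinostat pDC and 3 and 4 in vehicle pDC, against 7 and 3 in panobinostat cDC and 12 and 12 in vehicle cDC, and passed no test. Cox4i2, the lung form of subunit 4, had 1 and 0 counts in panobinostat pDC and 0 in vehicle pDC, against 5 and 2 in panobinostat cDC and 1 and 0 in vehicle cDC. Cox7b2 and Cox8b had 1 count each over all libraries, and Cox8c and Ndufa4l2 had 0. The partner genes Cox4i1, Cox7b, Cox8a and Ndufa4 had at least 1693 counts in every library, while Cox7a2, the common form of subunit 7A, had 74 to 132. The 6 members left untested were Cox4i2, Cox7b2, Cox8b, Cox8c, Ndufa4l2 and Uqcr11, a small complex III subunit with 1 count in all.

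Between the cell types after panobinostat, 10 of 80 members (12.5%) were called, all higher in pDC, against 18.0% of all genes (7.76% higher and 10.2% lower). Beside Cox6a2 they were 8 complex I genes and Sdhb. The median log2 fold change of the members was 0.98, with 77 above 0, and that of all genes was -0.18. In 67 members both pDC libraries lay above both cDC libraries, a share of 83.75%, against 24.7% of all genes, and in 0 both lay below, against 38.0%. Within same-numbered pairs of libraries, 72 members (90.0%) were higher in pDC both times and 1 (1.25%) lower, against 27.6% and 41.3% of all genes. By complex the medians were 1.05 for complex I, 0.31 for complex II, 0.81 for complex III, 0.98 for complex IV and 0.88 for complex V.

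Of the called genes, 3 (Ndufs7, Ndufs8 and Ndufs3) code for core subunits of complex I that line the path of electrons to ubiquinone. Ndufs7 had 111 and 149 CPM in panobinostat pDC and 106 and 117 CPM in vehicle pDC, against 65.1 and 67.5 CPM in panobinostat cDC and 70.5 and 67.4 CPM in vehicle cDC. All 4 pDC libraries lay above all 4 cDC libraries, by 0.97 ± 0.20 log2 units with panobinostat (adjusted p = 0.0264). Ndufs8 had 212 and 293 CPM in panobinostat pDC and 159.7 and 224 CPM in vehicle pDC, against 100.3 and 122 CPM in panobinostat cDC and 95.3 and 112 CPM in vehicle cDC (log2 fold change with panobinostat 1.18 ± 0.26, adjusted p = 0.0301). The groups of Ndufs3 did not overlap either, with 139.6 and 314 CPM in panobinostat pDC and 91.7 and 128 CPM in vehicle pDC, against 71.3 and 69.8 CPM in panobinostat cDC and 65.2 and 67.5 CPM in vehicle cDC (1.68 ± 0.39, adjusted p = 0.0350).

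The other called complex I genes code for accessory subunits. Ndufb10 had 169.7 and 337 CPM in panobinostat pDC and 130.1 and 165 CPM in vehicle pDC, against 83.0 and 91.5 CPM in panobinostat cDC and 90.6 and 91.0 CPM in vehicle cDC (1.54 ± 0.34, adjusted p = 0.0293). Ndufb3 had 72.5 and 144 CPM in panobinostat pDC and 35.1 and 53.3 CPM in vehicle pDC, against 30.6 and 33.2 CPM in panobinostat cDC and 28.7 and 28.4 CPM in vehicle cDC (1.76 ± 0.40, adjusted p = 0.0316). For both genes all 4 pDC libraries lay above all 4 cDC libraries, and the panobinostat pDC replicates were the furthest apart. Ndufs5 had 81.5 and 145 CPM in panobinostat pDC and 60.1 and 79.1 CPM in vehicle pDC, against 38.6 and 44.5 CPM in panobinostat cDC and 41.7 and 43.4 CPM in vehicle cDC (1.45 ± 0.33, adjusted p = 0.0322). Ndufa7 and Ndufv3 had log2 fold changes of 1.72 ± 0.43 (adjusted p = 0.0418) and 1.36 ± 0.35 (adjusted p = 0.0456). Sdhb, the iron-sulfur subunit of succinate dehydrogenase, had 326 and 481 CPM in panobinostat pDC and 221 and 279.5 CPM in vehicle pDC, against 188 and 209 CPM in panobinostat cDC and 182 and 207 CPM in vehicle cDC (1.02 ± 0.24, adjusted p = 0.0369).

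Without panobinostat pDC replicate 2, 7 of these 10 were called with panobinostat, namely Cox6a2, Ndufb10, Ndufs7, Ndufb3, Ndufs5, Ndufs3 and Ndufs8, against 36.1% of all genes (15.2% higher and 20.9% lower). The median of the members was then 0.33. By complex it was 0.46 for complex I, 0.49 for complex II, 0.23 for complex III, 0.29 for complex IV and 0.12 for complex V. In a fit that corrected for GC content and length 8 members were called, against 14.1% of all genes (7.98% higher). Among the 8 were 4 of the 10 (Cox6a2, Ndufs7, Ndufb10 and Ndufs3), while Ndufs8, Ndufv3, Ndufa7, Sdhb, Ndufb3 and Ndufs5 then had adjusted p of 0.0512 to 0.0895. The count was 1, Cox6a2 each time, when one of 5 other libraries was left out. The share of all genes called was then 8.88% without vehicle pDC replicate 2, 2.30% and 2.47% without panobinostat cDC replicates 1 and 2, and 5.98% and 6.08% without vehicle cDC replicates 1 and 2. The count of members was 2 without vehicle pDC replicate 1, against 8.98% of all genes. Without panobinostat pDC replicate 1 it was 65, all higher, against 65.9% of all genes (23.0% higher). A fit with a replicate block called 23, all higher and all 10 among them, against 16.2% of all genes (7.61% higher).

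Between the cell types after vehicle, Cox6a2 was the 1 member called of 80, against 9.73% of all genes (5.01% higher and 4.71% lower). The median log2 fold change of the members was 0.25, with 65 above 0, and that of all genes was 0.02. In 27 members both pDC libraries lay above both cDC libraries and in 4 below, shares of 33.75% and 5%, against 35.1% and 35.5% of all genes. Within same-numbered pairs 49 (61.2%) were higher in pDC both times and 8 (10%) lower, against 42.5% and 41.1% of all genes. At an unadjusted p under 0.05 there were 8 (10%), 7 higher and 1 lower, against 24.5% of all genes. Complexes I and II had medians of 0.41 and 0.39, and complexes III, IV and V of 0.03, 0.24 and 0.15. Without panobinostat pDC replicate 2, a library not in this comparison but in the shared estimate of the spread, 10 members were called, against 36.1% of all genes (16.5% higher and 19.6% lower). They were Cox6a2, 8 complex I genes higher in pDC (Ndufs7 by 0.67, Ndufs8 by 0.87, Ndufs3 by 0.71, Ndufs5 by 0.69, Ndufb10 by 0.68, Ndufv3 by 0.85, Ndufa11 by 0.75 and Ndufv1 by 0.50 log2 units) and Cox6b2, lower in pDC. The count was 11 without panobinostat pDC replicate 1, against 37.2% of all genes. With the replicate block 2 members were called, Cox6a2 and Ndufs8, against 8.72% of all genes.

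**Figure D2:**
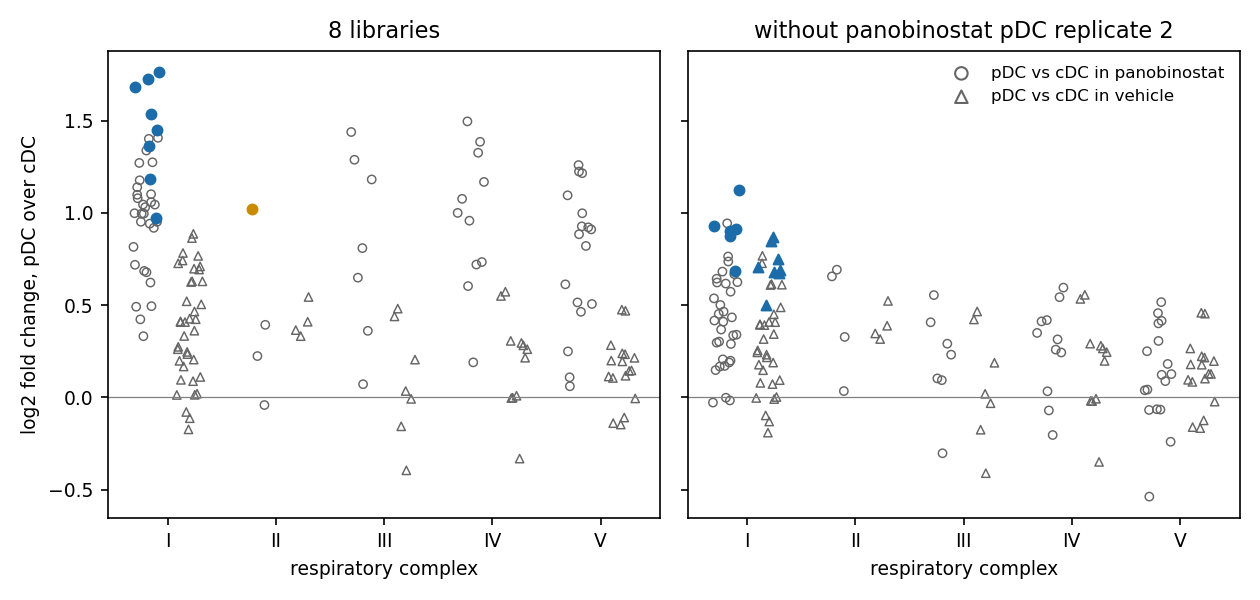
Log2 fold change of pDC over cDC for the tested members by complex, tissue isoforms left out, with circles for panobinostat and triangles for vehicle; filled symbols passed the test (adjusted p under 0.05). With all 8 libraries (left) 8 complex I genes and Sdhb are filled, all with panobinostat, and without panobinostat pDC replicate 2 (right) the filled symbols are complex I genes of both comparisons.

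Described here are 5 members of complexes II, III and V that had the smallest p of their complex in 1 of the 2 comparisons of cell types. They did not pass in the reported fit. With panobinostat, Atp5c1 was called under library size scaling, without the filter, with the replicate block, by DESeq2 and by limma-voom. Uqcrh was called with the replicate block and by DESeq2. Neither was called with GC and length offsets. Calls of these 5 genes in fits that leave out 1 library are not listed here. Uqcrh, the hinge protein of complex III, had 263 and 578 CPM in panobinostat pDC and 163 and 271 CPM in vehicle pDC, against 157 and 187 CPM in panobinostat cDC and 141 and 169.8 CPM in vehicle cDC. Its log2 fold change of pDC over cDC was 1.29 ± 0.42 with panobinostat (adjusted p = 0.0829). Uqcrfs1, the Rieske iron-sulfur subunit of complex III, had 185 and 276 CPM in panobinostat pDC and 108 and 191 CPM in vehicle pDC, against 209 and 230.0 CPM in panobinostat cDC and 185 and 209 CPM in vehicle cDC (-0.40 ± 0.32 in vehicle, adjusted p = 0.560). The pDC and cDC values of this gene overlapped. Atp5c1, the gamma subunit of the ATP synthase stalk, had 493 and 767 CPM in panobinostat pDC and 353 and 451 CPM in vehicle pDC, against 317 and 345 CPM in panobinostat cDC and 321 and 363 CPM in vehicle cDC (0.93 ± 0.26 with panobinostat, adjusted p = 0.0554). Atp5h, a subunit of the peripheral stalk, had 279 and 657 CPM in panobinostat pDC and 213 and 333 CPM in vehicle pDC, against 184 and 207 CPM in panobinostat cDC and 189 and 204 CPM in vehicle cDC (0.48 ± 0.42 in vehicle, adjusted p = 0.601). Sdhc, a membrane anchor of complex II, had 104 and 105 CPM in panobinostat pDC and 91.4 and 111 CPM in vehicle pDC, against 76.1 and 82.3 CPM in panobinostat cDC and 75.6 and 63.1 CPM in vehicle cDC (0.54 ± 0.20 in vehicle, adjusted p = 0.149).

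In pDC, panobinostat against vehicle, 0 of 80 members were called by edgeR's quasi-likelihood test, against 0.0913% of all genes. At an unadjusted p under 0.05 there were 13 members (16.2%), all higher with panobinostat, against 14.9% of all genes. DESeq2 called 2 (Ndufb3 and Cox6b2), both higher, against 6.36% of all genes (2.30% higher), and limma-voom called 0 members and 0 genes. The median log2 fold change was 0.68, with 76 members above 0, against -0.14 for all genes. In 28 members (35%) the panobinostat values were both above the vehicle values, against 15.7% of all genes, and in 1 below, against 26.5%. Within same-numbered pairs 72 members (90.0%) were higher with panobinostat both times and 2 (2.50%) lower, against 25.3% and 34.8% of all genes. The member whose groups lay apart in the other direction was Sdha, the flavoprotein of succinate dehydrogenase, with 373 and 307 CPM in panobinostat pDC and 415 and 449 CPM in vehicle pDC (-0.34 ± 0.17, adjusted p = 0.395). Medians were 0.68 for complex I, 0.83 for complex III, 0.75 for complex IV and 0.65 for complex V, and -0.13 for the 4 genes of complex II. Without panobinostat pDC replicate 2 they were 0.14 for complexes I, III and IV, -0.02 for complex V and 0.07 for complex II.

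The members of each complex with the smallest p in this comparison were Ndufb3 (1.30 ± 0.39, adjusted p = 0.236), Sdhb (0.69 ± 0.24, adjusted p = 0.283), Uqcrh (0.96 ± 0.42, adjusted p = 0.350), Cox6b2 and Atp5c1 (0.65 ± 0.26, adjusted p = 0.319). Their 2 panobinostat libraries lay above the vehicle libraries for Ndufb3, Sdhb, Cox6b2 and Atp5c1 and overlapped them for Uqcrh, which was higher with panobinostat within both same-numbered pairs. Without panobinostat pDC replicate 2 the median of the members was 0.10, with 51 above 0 and 29 below, and 0 were called, against 4.78% of all genes. Ndufb3 then had a log2 fold change of 0.66 ± 0.27 (adjusted p = 0.216). Without panobinostat pDC replicate 1 the median was 1.06 and 59 members were called, all higher, against 55.3% of all genes (18.1% higher).

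Panobinostat pDC replicate 2 taken alone lay furthest from vehicle. Members took 1.98% of its counts, against 1.34% in panobinostat pDC replicate 1, 1.15% and 1.39% in vehicle pDC, 0.999% and 1.03% in panobinostat cDC and 1.06% and 1.11% in vehicle cDC. The median log2 CPM of the tested members was 8.17 in this library, 7.03 in panobinostat pDC replicate 1 and 6.60 and 7.13 in vehicle pDC. For all genes tested those medians were 3.25, 3.97, 4.01 and 3.96. Set against the mean of the vehicle pDC libraries, the members' median was 1.11 log2 units higher in replicate 2 and 0.18 in replicate 1, while that of all genes was -0.65 and 0.01.

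Of the 80 tested members, 75 were higher in this library than in each of the other 3 pDC libraries, and 3 were lower, against 30.5% and 48.9% of all genes. All 7 tested genes of complex III and all 17 of complex V were among the 75. Complex II differed: Sdha (-0.49) and Sdhd (-1.06) lay below the vehicle mean, Sdhc (0.06) beside it and Sdhb (0.95) above it. Sdhd, a membrane anchor of complex II, had only 30 and 6 counts in panobinostat pDC and 22 and 27 in vehicle pDC, against 12 and 22 in panobinostat cDC and 15 and 29 in vehicle cDC. Within complex I the 7 tested core genes had a median of 0.63 and the other 31 a median of 1.19. Summed over complex I, the library reached 7740.4 CPM, where panobinostat pDC replicate 1 had 4149.6 and the vehicle pDC libraries 3079 and 4362.

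Genes outside the chain moved with the members in this library. Cytosolic ribosome genes had a median of 1.13 above the vehicle mean, with 77 of 80 above each of the other pDC libraries, and mitochondrial ribosome genes 0.77, with 58 of 77. Citric acid cycle genes had a median of 0.43. The 11 regulators of mitochondrial gene expression had -2.15, with 9 of 11 below each of the other pDC libraries. Transcript length moved with the values too: the longest annotated transcript had a median of 1025.5 bases for tested members and 3306 for all genes tested with a length. Across those 12767 genes, which share libraries and are not independent, Spearman's rho between length and the difference from the vehicle mean was -0.30 in replicate 2 and -0.11 in replicate 1. Over 78 members it was -0.31 and -0.04. Markers of NK cells summed to 487 CPM in replicate 2 and 185 in replicate 1, against 23.8 and 44.6 in vehicle pDC, but 5 of its 6 genes had 0 counts in replicate 2, where Klrk1 gave the whole sum. B cell markers summed to 358 CPM in replicate 2 and 139 in replicate 1, against 109 and 178 CPM in vehicle pDC, and erythroid markers to 1079 and 3238 CPM, against 1009 and 538 CPM. The monocyte list summed to 6629 CPM in replicate 2 and 3293 in replicate 1, against 2177.5 and 3959.7 CPM in vehicle pDC, with Ly6c2 and Cd68 as its only genes above 0 in replicate 2. The T cell list summed to 676 CPM in replicate 2 and 472 in replicate 1, against 1065 and 1658 CPM in vehicle pDC. Most of it came from Cd4 and Cd8b1. Cd3e had 0 counts in both panobinostat libraries, and Cd3g had 0 in replicate 2 and 15 in replicate 1. Cd3d had 94 counts in replicate 2 and 10 in replicate 1, against 5 and 16 in vehicle pDC. The cDC list summed to 3827 CPM in replicate 2 and 2377 in replicate 1, against 2340 and 2812 CPM in vehicle pDC. Cd209a and Clec10a, which ran against the list, had its highest counts in both panobinostat pDC libraries. Zbtb46, Batf3 and Itgae had 211, 204 and 351 counts in replicate 2 and 88, 30 and 1 in replicate 1. Xcr1 had 0 and 75 counts in replicates 2 and 1. Clec9a, Itgax, Sirpa, Flt3 and Ccr7 also had fewer counts in replicate 2, the library with the lowest total. The part of depth, transcript length and other cell types in the members' values was not tested.

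**Figure D3:**
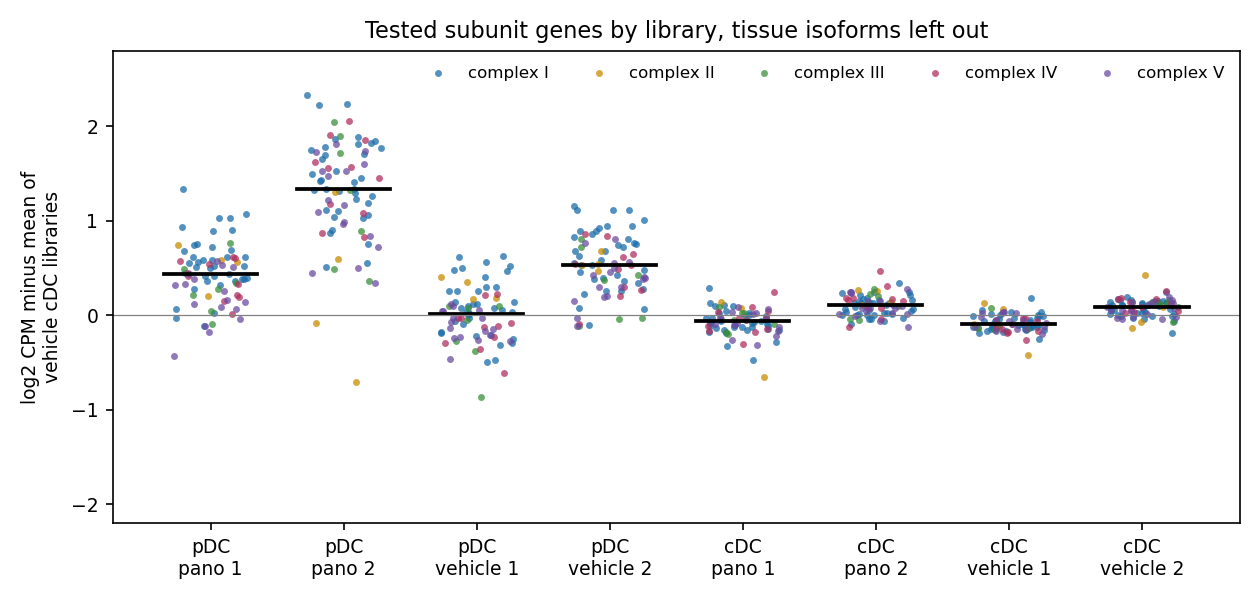
Log2 CPM of the 77 tested members that are not tissue isoforms, minus their mean in the vehicle cDC libraries, with 1 point per gene coloured by complex and a bar at the median of each library. The medians are 0.43 and 1.34 in panobinostat pDC, 0.01 and 0.53 in vehicle pDC, and between -0.09 and 0.11 in the cDC libraries.

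**Figure D4:**
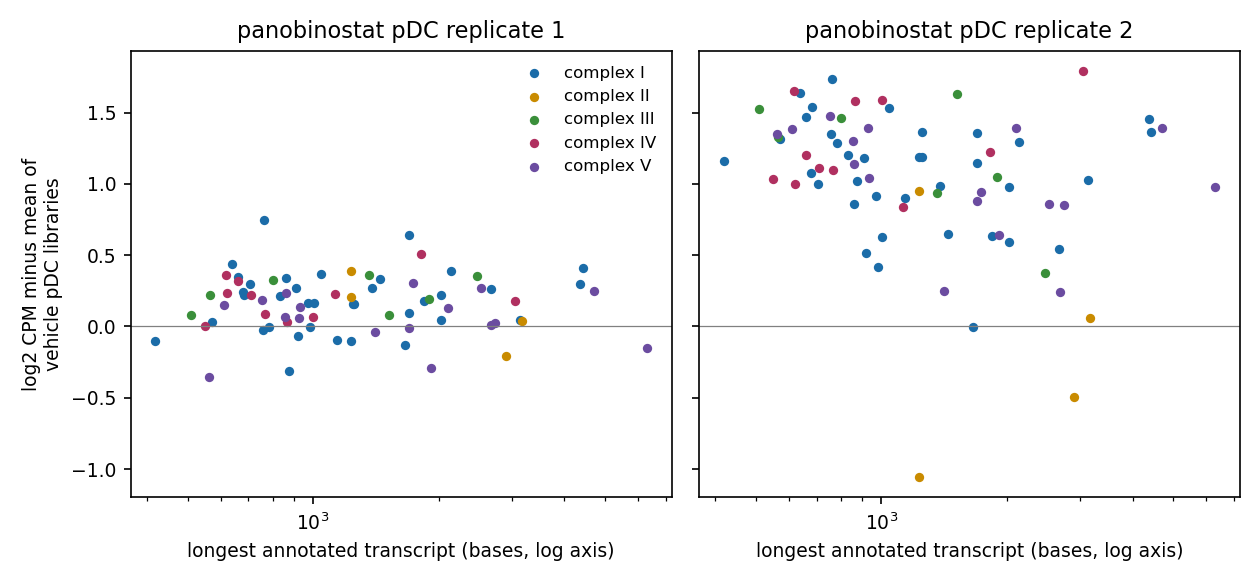
Log2 CPM minus the mean of the vehicle pDC libraries against the longest annotated transcript (bases, log axis) for the tested members with a length, in panobinostat pDC replicate 1 (left) and replicate 2 (right), coloured by complex, with tissue isoforms left out. In replicate 2 the 2 points furthest below 0 are the complex II genes Sdhd and Sdha, and most of the other points lie between 0 and 1.79.

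In cDC, panobinostat against vehicle, 0 of 80 members were called, against 0.0% of all genes, and 0 members had an unadjusted p under 0.05, against 1.45% of all genes. DESeq2 called 0 members and 15 genes in all, and limma-voom 0 members and 0 genes. The median log2 fold change was 0.02, with 46 above 0 and 34 below. In 12 members the panobinostat values were both above the vehicle values and in 4 below, shares of 15% and 5%, against 22.2% and 18.8% of all genes. Of the members with the smallest p per complex, Cox6a2 had 0.83 ± 0.44 at 4 to 12 counts per library, and Ndufa10 (0.16 ± 0.19), Sdhc (0.19 ± 0.20), Uqcrfs1 (0.15 ± 0.32) and Atp5a1 (0.12 ± 0.17) all had an adjusted p of 1. Ndufa10, an accessory subunit of complex I, had 111 and 116 CPM in panobinostat cDC and 101 and 103 CPM in vehicle cDC. Atp5a1, the alpha subunit of the ATP synthase head, had 590.5 and 617 CPM in panobinostat cDC and 562 and 545 CPM in vehicle cDC. For both genes the groups did not overlap but lay close together.

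The panobinostat effects in pDC and cDC were compared by the difference between their log2 fold changes (pDC minus cDC). Of the members, 0 of 80 were called by edgeR's quasi-likelihood test, against 0.00702% of all genes. The 1 member with an unadjusted p under 0.05, against 7.77% of all genes, was Cox5a, a subunit of complex IV. It had 203 and 334 CPM in panobinostat pDC and 119 and 171 CPM in vehicle pDC, against 148 and 178 CPM in panobinostat cDC and 179.5 and 186 CPM in vehicle cDC (1.05 ± 0.42, adjusted p = 0.628). DESeq2 called 0 members and 290 genes in all, and limma-voom 0 members and 0 genes. The median difference was 0.71, and 0.081 without panobinostat pDC replicate 2, where 0 were called, against 1.85% of all genes. Ndufs4, a complex I subunit of the NADH-binding module (0.98 ± 0.46), and Uqcrc2, a core protein of complex III (0.81 ± 0.42), had the smallest p of their complexes and adjusted p of 0.702 and 0.728, as did Sdhb (0.66 ± 0.34, adjusted p = 0.726) and Atp5c1 (0.69 ± 0.36, adjusted p = 0.728). When panobinostat pDC replicate 1 was left out, 36 members were called, all with the higher effect in pDC, against 43.4% of all genes (11.1% in that direction).

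Levels per kilobase of exon, averaged over the 8 libraries, spanned a wide range within each complex. Members were ranked on merged exons only, and Ndufb4b and Ndufb4c, tested but without a length, were not ranked. Of the 36 ranked in complex I the highest was Ndufa2, an accessory subunit, with 236. The lowest was Ndufs1, the largest core subunit, with 8.71. The order depends on the length used: Ndufs1 has 8086 bases of merged exon and a longest transcript of 2661. Atp5b, above Atp5c1 in CPM in every library, has 4237 and 1916. In CPM, Ndufs1 had 79.3 and 96.2 in panobinostat pDC and 71.3 and 61.1 in vehicle pDC, against 61.5 and 63.0 in panobinostat cDC and 67.2 and 63.9 in vehicle cDC, and its groups lay close together. In complex II the ends were Sdhb with 117 and Sdhd with 0.856, in complex III Uqcr10 with 231 and Uqcrq with 73.2, in complex IV Cox4i1 with 437 and Cox7a1 with 0.532, and in complex V Atp5c1 with 223 and Atp5md with 23.4. Cox4i1 had 698 and 1408 CPM in panobinostat pDC and 529.6 and 816 CPM in vehicle pDC, against 485 and 568 CPM in panobinostat cDC and 418 and 502 CPM in vehicle cDC. Ndufb4b and Ndufb4c are near copies of Ndufb4, and how reads were split among these 3 genes is uncertain. Sdhd had 6 to 30 counts per library, Cox7a2 74 to 132 and Uqcr11 1 in all. How reads were assigned to these low genes was not tested.

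The ring of ATP synthase is built from subunit c, which 3 genes encode with the same mature protein. Per length of merged exons, Atp5g2 held 42.3% and 47.7% of the 3 genes' level in panobinostat pDC and 40.2% and 46.4% in vehicle pDC, against 38.0% and 38.6% in panobinostat cDC and 39.3% and 36.8% in vehicle cDC. Atp5g3 held 39.4% and 33.8% in panobinostat pDC and 41.4% and 36.3% in vehicle pDC, against 44.0% and 44.5% in panobinostat cDC and 44.2% and 45.8% in vehicle cDC. All pDC libraries lay above all cDC libraries for Atp5g2 and below them for Atp5g3, with no test run on the shares, and 0 of the 3 genes were called in the reported fit. With the GC and length offsets Atp5g2 was called for pDC over cDC with panobinostat (1.84 ± 0.49, adjusted p = 0.0491). Atp5g1 held between 16.5% and 18.5% in every library on merged exons, and between 7.96% and 9.16% on the longest transcript.

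Genes that assemble or serve the chain were taken from lists of assembly factors, carriers, regulators, the citric acid cycle and the ribosomes. In both panobinostat comparisons 0 genes of these lists were called. With panobinostat, pDC over cDC, 8 of 63 genes of assembly or electron carriers (12.7%) were called, all higher in pDC, against 7.76% of all genes. They were Ndufaf3 of 16 complex I assembly factors (1.96 ± 0.47), Lyrm7 of 6 for complex III (2.73 ± 0.72), Surf1, Coa3 and Cox14 of 23 for complex IV (1.79 ± 0.39, 1.14 ± 0.28 and 1.30 ± 0.33), Tmem242 of 5 for the ATP synthase (1.50 ± 0.29), and Etfb and Dmac1 of 9 carriers and other subunits (1.13 ± 0.23 and 1.44 ± 0.38). Surf1, a haem-insertion factor of complex IV, had 41.2 and 80.2 CPM in panobinostat pDC, against 17.1 and 17.9 CPM in panobinostat cDC. The replicates of Lyrm7 lay far apart, at 17.8 and 6.32 CPM in panobinostat pDC, against 1.74 and 1.90 CPM in panobinostat cDC. Calls in these lists are given for the reported fit only, which includes panobinostat pDC replicate 2. Of the 11 regulators, 2 were called lower in pDC with panobinostat, against 10.2% of all genes: Polrmt, the mitochondrial RNA polymerase gene (-1.67 ± 0.41), and Esrra, a nuclear receptor gene of mitochondrial biogenesis (-2.79 ± 0.72). Mdh2, the malate dehydrogenase of the citric acid cycle, was lower in pDC in both comparisons of the cell types. It had 359 and 576 CPM in panobinostat pDC and 273 and 280.4 CPM in vehicle pDC, against 1092 and 1131 CPM in panobinostat cDC and 1007 and 915 CPM in vehicle cDC (-1.25 ± 0.25 with panobinostat, adjusted p = 0.0237, and -1.80 ± 0.26 in vehicle, adjusted p = 0.0108). Of 77 mitochondrial ribosome genes 4 (5.19%) were called, all higher in pDC with panobinostat, and of 80 cytosolic ribosome genes 1 (1.25%) was, Rpl31 (2.08 ± 0.43), both shares below the 7.76% of all genes. In vehicle, Dmac2, a complex I assembly gene, was higher in pDC by 1.53 ± 0.26 log2 units (adjusted p = 0.0193), as was Rpl31 by 1.97 ± 0.43.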

How the data were processed

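RNA of sorted pDC and cDC was sequenced in 8 libraries. The extraction text in the labels speaks of sorted leukemia cells, while titles and source names give pDC and cDC, which were used here. Per the labels' protocols, Trizol and Direct-zol reagents were used for RNA, and a NEBNext low-input kit for libraries. Per the submitters' processing notes, tools included bcl2fastq (2.17.1.14), FastQC (0.11.6), cutadapt (2.1), HISAT2 (2.1.0), featureCounts (Subread 2.0.0) and limma, with build mm10. The deposited values are whole read counts by Entrez gene ID, not normalized. Column names with D5W (dextrose in water) were read as vehicle and those with LBH as panobinostat. Strandedness, the annotation counted on and the handling of multi-mapped reads were not given in the sources used here. Without molecular identifiers, reads are not independent molecules.

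Symbols came from RefSeq GRCm38.p6 and matched 25275 of 27179 gene IDs (92.99%). The rule left out 5 matching genes that are not protein coding, and Ndufb1 was not analysed here. Lengths are merged exons or longest transcripts of GENCODE M21, found for 84 members. Tests used edgeR (4.0.16) in R (4.3.3): filterByExpr (minimum count 10, minimum total 15), TMM scaling, 1 coefficient per group over all 8 libraries (4 residual and 2.32 prior degrees of freedom), the quasi-likelihood F test, and Benjamini-Hochberg adjustment over all 14238 genes, with 0.05 as the threshold for a call. SEs were derived from the F statistic. CPM used TMM-scaled library sizes, and log2 CPM a prior count of 2. The procedure was tested on simulated data. Alternatives were RLE and library size scaling, no filter or a minimum of 20 counts, GC and length offsets, DESeq2 (1.42.0), limma-voom (3.58.1), fits of the compared groups alone, a replicate block, and leaving out each library.

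Every group has replicates 1 and 2 in the labels. Deviations of same-numbered libraries from their group means correlated between groups with r of 0.146 to 0.489 in all 6 pairs of groups, and same numbers were therefore treated as pairs, although the labels do not say what a number shares. The reported fit has no block. The members, the gene lists and the rule for the genes given in every library (isoforms and partners, called members, the smallest p and the highest and lowest level per complex) were chosen with earlier results of these data known. Comparisons of 1 cell type or treatment share libraries with each other.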

Additional observations from a re-analysis of the deposited data

How the results depend on the processing

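Counts of called members moved with the processing, and the causes were not tested. For pDC over cDC with panobinostat (10 as reported) the count was 16 with library size scaling, 20 with DESeq2, 1 in the 4 libraries compared alone and 1 to 65 over the fits that leave out 1 library; the shares of all genes called higher in the first 3 were 7.75%, 13.5% and 0.776%. With GC and length offsets it was 8, of which 4 were among the 10. With the replicate block it was 23, and 4 with the block and the GC and length offsets together, against 5.49% of all genes called higher. For pDC over cDC in vehicle (1) it was 2 with library size scaling, DESeq2 or the replicate block (10.1%, 20.1% and 8.72% of all genes), 5 in the compared libraries alone (32.8%) and 1 to 11 with 1 library left out. For panobinostat in pDC (0) it was 2 with DESeq2 and 0 to 59 with 1 library left out, and for the difference of effects (0) it was 0 to 36. For panobinostat in cDC it was 0 under every alternative run. The replicate block changed no other count beyond 1.5 times.

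The median log2 fold change of the members ran, with 1 library left out, from 0.10 to 1.06 for panobinostat in pDC, from -0.06 to 0.12 for panobinostat in cDC, from 0.081 to 1.07 for the difference, from 0.33 to 1.36 for pDC over cDC with panobinostat and from -0.039 to 0.51 for the same in vehicle. Under GC and length offsets these medians were 0.65, -0.01, 0.68, 0.89 and 0.24. A group left with 1 library was assumed to vary like the others.

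Among single members, Cox6a2 was called between the cell types under every alternative run. Its panobinostat effect in pDC, 0.01 as reported, turned to -0.20 with library size scaling, -0.014 without the filter, -0.0031 with the replicate block, -0.27 with GC and length offsets, -0.26 with both, -0.023 with limma-voom, -0.061 in the pDC libraries alone, and ran from -0.27 to 0.19 over the fits without 1 library. Atp5a1 in cDC, 0.12 as reported, was -0.014 with library size scaling. At 2 libraries per group, differences within the spread of panobinostat pDC were not detectable.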
